A study of Mus musculus with 6 samples.

Results

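The genes described here encode the SMC (structural maintenance of chromosomes) complexes of the testis: cohesin, condensin and SMC5/6, with the proteins that load, lock, protect and remove them. They were chosen as a list of 42 symbols of known function, matched by GENCODE mouse release 21 symbol (GRCm38) to the 55536 genes counted, and all 42 symbols matched. The list holds 4 meiosis-specific cohesin subunits (Smc1b, Rec8, Rad21l and Stag3) and 38 general members, and 41 of the 42 passed the filter on low counts among the 21465 genes tested. The list was chosen by gene function, with the KOStra8 minus HETStra8 differences in counts of these same mice already known, so the genotype differences below describe these mice and are not independent evidence.

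Whole testes of 3 KOStra8 and 3 HETStra8 mice, all aged 7 weeks, were measured by RNA-seq of poly(A)+ RNA, with 1 library per mouse. KOStra8 mice carried Sel1L flox/Δ together with Stra8-Cre, which deletes Sel1L, a subunit of the endoplasmic reticulum degradation complex SEL1L-HRD1, in male germ cells. HETStra8 mice were littermates described in the series record as Sel1L flox/Δ. The study's text pools such mice with Sel1L flox/+;Stra8-Cre mice, and the genotype of each HETStra8 mouse was not given in the sources used here. Both groups thus carried a floxed Sel1L allele, and no wild-type testis enters this comparison. Stra8-Cre acts only in part of the spermatogonia and spares Sertoli cells, so SEL1L was still seen in those cells of KOStra8 mice. Libraries held 28875108 to 36526695 counts. Sel1l was at 42.4 to 49.3 CPM (counts scaled to library size) in HETStra8 and at 20.3 to 24.2 in KOStra8 testes, and no KOStra8 value reached a HETStra8 value (log2 fold change -1.07, SE 0.104, adjusted p = 0.00061 by edgeR's quasi-likelihood test with Benjamini-Hochberg adjustment).

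SMC complexes are rings built from a pair of SMC ATPases and a kleisin subunit that closes them. Cohesin holds sister chromatids together and forms chromatin loops, condensin compacts chromosomes for division, and SMC5/6 resolves joined DNA during repair and recombination. Spermatocytes replace part of their cohesin with meiotic subunits: SMC1B takes the place of SMC1A, STAG3 that of STAG1 or STAG2, and REC8 or RAD21L that of RAD21, and male mice that lack any of these meiotic proteins are infertile.

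Promoter sequence is shown for genes at the centre of the comparison between meiotic and general subunits. The 250 bases upstream of the RefSeq start (GRCm38.p6) are shown for the 4 meiosis-specific genes and for Smc1a and Stag1, the general counterparts of Smc1b and Stag3. Capitals mark TTCCCGC, an E2F-type site searched on both strands, because E2F6 is known to keep Smc1b and Stag3 silent in somatic cells.
Smc1b: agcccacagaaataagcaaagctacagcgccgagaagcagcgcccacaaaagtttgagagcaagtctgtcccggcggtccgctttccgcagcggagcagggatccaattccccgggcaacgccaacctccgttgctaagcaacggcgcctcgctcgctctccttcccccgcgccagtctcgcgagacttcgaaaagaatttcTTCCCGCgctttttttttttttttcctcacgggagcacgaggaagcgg
Stag3: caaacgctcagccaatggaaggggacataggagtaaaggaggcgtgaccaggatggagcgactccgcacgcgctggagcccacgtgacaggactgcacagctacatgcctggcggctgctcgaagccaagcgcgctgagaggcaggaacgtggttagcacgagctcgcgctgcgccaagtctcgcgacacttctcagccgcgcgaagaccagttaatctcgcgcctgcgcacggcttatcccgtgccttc
Rec8: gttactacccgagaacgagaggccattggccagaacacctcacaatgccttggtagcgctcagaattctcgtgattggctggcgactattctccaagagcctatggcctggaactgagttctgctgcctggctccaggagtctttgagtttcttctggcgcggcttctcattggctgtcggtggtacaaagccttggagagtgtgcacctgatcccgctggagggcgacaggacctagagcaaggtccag
Rad21l: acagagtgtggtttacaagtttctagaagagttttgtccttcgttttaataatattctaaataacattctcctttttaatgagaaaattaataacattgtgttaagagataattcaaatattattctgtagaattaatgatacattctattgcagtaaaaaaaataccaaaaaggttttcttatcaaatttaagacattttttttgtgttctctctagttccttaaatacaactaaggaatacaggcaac
Smc1a: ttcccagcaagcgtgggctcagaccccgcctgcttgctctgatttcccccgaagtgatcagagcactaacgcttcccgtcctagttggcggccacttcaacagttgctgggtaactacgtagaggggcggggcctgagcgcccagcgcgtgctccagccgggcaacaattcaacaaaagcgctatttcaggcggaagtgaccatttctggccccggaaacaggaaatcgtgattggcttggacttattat
Stag1: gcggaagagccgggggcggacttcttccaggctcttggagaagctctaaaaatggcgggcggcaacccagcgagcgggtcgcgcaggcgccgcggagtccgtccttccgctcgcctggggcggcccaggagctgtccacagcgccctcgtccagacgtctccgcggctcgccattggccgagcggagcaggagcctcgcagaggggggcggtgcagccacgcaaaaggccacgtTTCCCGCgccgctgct
The windows lie at chr15:85131958-85132207 on the minus strand for Smc1b, chr5:138280259-138280508 on the plus strand for Stag3, chr14:55617916-55618165 on the plus strand for Rec8, chr2:151668534-151668783 on the minus strand for Rad21l, chrX:152016178-152016427 on the plus strand for Smc1a and chr9:100643198-100643447 on the plus strand for Stag1. The site lay 48 to 42 bases before the start in Smc1b and 16 to 10 bases before it in Stag1. In Stag3 and Smc1a the letters occurred once, after the start and so outside the bases shown, and in Rec8 and Rad21l they did not occur. The window of Rad21l also stood out by its base composition, with 25.6% GC against 56.0% to 71.2% in the other 5.

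RefSeq windows from 250 bases before to 50 bases after the start were at hand for 33 of the 42 members, in 37 windows. TTCCCGC or its reverse complement stood in 24.3% of these windows and in 4.6% of all 32851 windows, and the 9 members with it were Smc1a, Smc1b, Stag1, Stag3, Pds5a, Sgo2a, Ncapg, Ncapg2 and Nsmce1. The letters of 4 other common elements were counted in the same way. CCAAT stood in 56.8% of member windows against 37.4% of all, GGGCGG in 62.2% against 35.7%, CACGTG in 10.8% against 7.15% and TATAAA in 8.11% against 13.6%. These counts describe letters in a window, and binding was not measured.

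The testis expressed the complexes at very unequal levels. Levels between genes are given per length: counts divided by the gene's exon length and scaled to the same total in each library, as TPM are. In HETStra8 testes Stag3 was the highest member at 327 ± 14.7 (SD, n = 3), followed by Nsmce1, a ubiquitin ligase subunit of SMC5/6, at 222, the condensin ATPase Smc4 at 208, and the cohesin loader Nipbl and Smc1b, both at 138. The SD of Smc1b (46.2) and Nipbl (21.2) were larger than the gap between them, so these neighbours in the order could not be told apart. Rec8 followed at 94.6 ± 11.3, Smc5 at 92.2, the release factor Wapl at 90.5 and the general kleisin Rad21 at 81.3 ± 6.78, again with gaps near the SD. At the other end, Pds5a (8.01), Top2b (6.97), Smc1a (6.61), Rad21l (5.25), Smchd1 (4.45), the acetyltransferase Esco2 (4.32), the centromere protector Sgo1 (2.38), the CTCF paralog Ctcfl (1.2) and the deacetylase Hdac8 (0.204) were all below the median of the genes tested, 8.27. Sgo2b had 2 counts in HETStra8 mouse 2, 1 count in KOStra8 mouse 3 and 0 in the other mice, and was not tested.

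In the SMC1 and STAG families the meiotic subunit made up most of the message, while the meiotic kleisins together stood near the general one. Smc1b accounted for 94.6%, 95.5% and 95.8% of the summed level of Smc1a and Smc1b in the HETStra8 mice and for 97.3%, 97.3% and 97.2% in the KOStra8 mice, so that the groups did not overlap (95.3% ± 0.616 against 97.3% ± 0.0667, SD, n = 3). Stag3 accounted for 93.1%, 93.0% and 90.9% of the 3 Stag genes in HETStra8 and for 90.5%, 90.1% and 89.6% in KOStra8 (92.3% ± 1.22 against 90.1% ± 0.449), also without overlap but in the other direction. These shares were not corrected for GC content, and with that correction the log2 fold changes were -0.10 for Stag3, 0.030 for Stag1, 0.0081 for Stag2, 0.48 for Smc1b and -0.099 for Smc1a. Rec8 and Rad21l together made up 53.5%, 59.2% and 52.6% of the kleisin message in HETStra8 and 50.8%, 55.6% and 52.0% in KOStra8, and these ranges overlapped. The kleisin was therefore the only core position of the 3 at which the general subunit stood near the meiotic ones. Exon length enters these shares, and with the longest transcript in its place the kleisin share in HETStra8 was 60.3%.

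**Figure D1:**
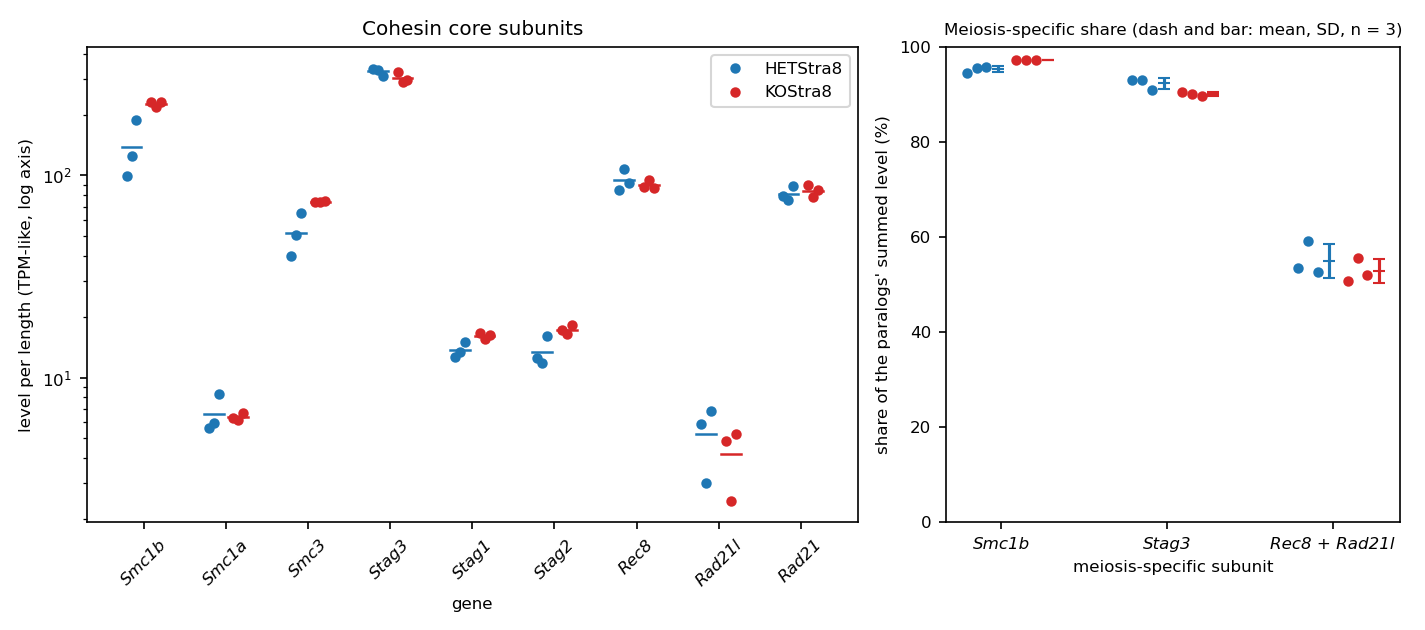
Left, level per length (TPM-like, log axis) of the 9 cohesin core subunits, with a point for each of 3 HETStra8 and 3 KOStra8 mice and a line at each group mean. Right, share (%) of the paralogs' summed level held by the meiosis-specific subunit, with the mean and SD (n = 3). The Smc1b share lies higher in all KOStra8 mice and the Stag3 share lower, while the kleisin shares of the groups overlap. Levels and shares are not corrected for GC content.

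At the study's cutoffs (adjusted p 0.01, fold 2), none of the 41 tested members differed between the genotypes, against a background of 0.00466% of all genes in each direction. At an adjusted p of 0.05 and any fold the count of members was also 0, against 0.0186% of genes higher and 0.00466% lower in KOStra8. That second cutoff was passed by 2 members with limma-voom (0.0512% of all genes higher, 0.00466% lower) and by 12 with DESeq2 (2.5% of the genes it adjusted higher, 0.392% lower), all higher in KOStra8. At an unadjusted p of 0.05 in edgeR, 20 members were higher and 2 lower in KOStra8, where 7.13% and 5.12% of all genes were. In 20 members all 3 KOStra8 testes lay above all 3 HETStra8 testes, and in 1 member, Ncaph2, all lay below, against 9.33% and 8.43% of all genes. The median log2 fold change was 0.22 over the 41 members, of which 30 were positive, and -0.0094 over all genes tested. For a single gene the smallest p of an exact permutation test over these 6 mice is 0.1. In whole testis fewer cells of a type and less RNA per cell cannot be told apart.

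**Figure D2:**
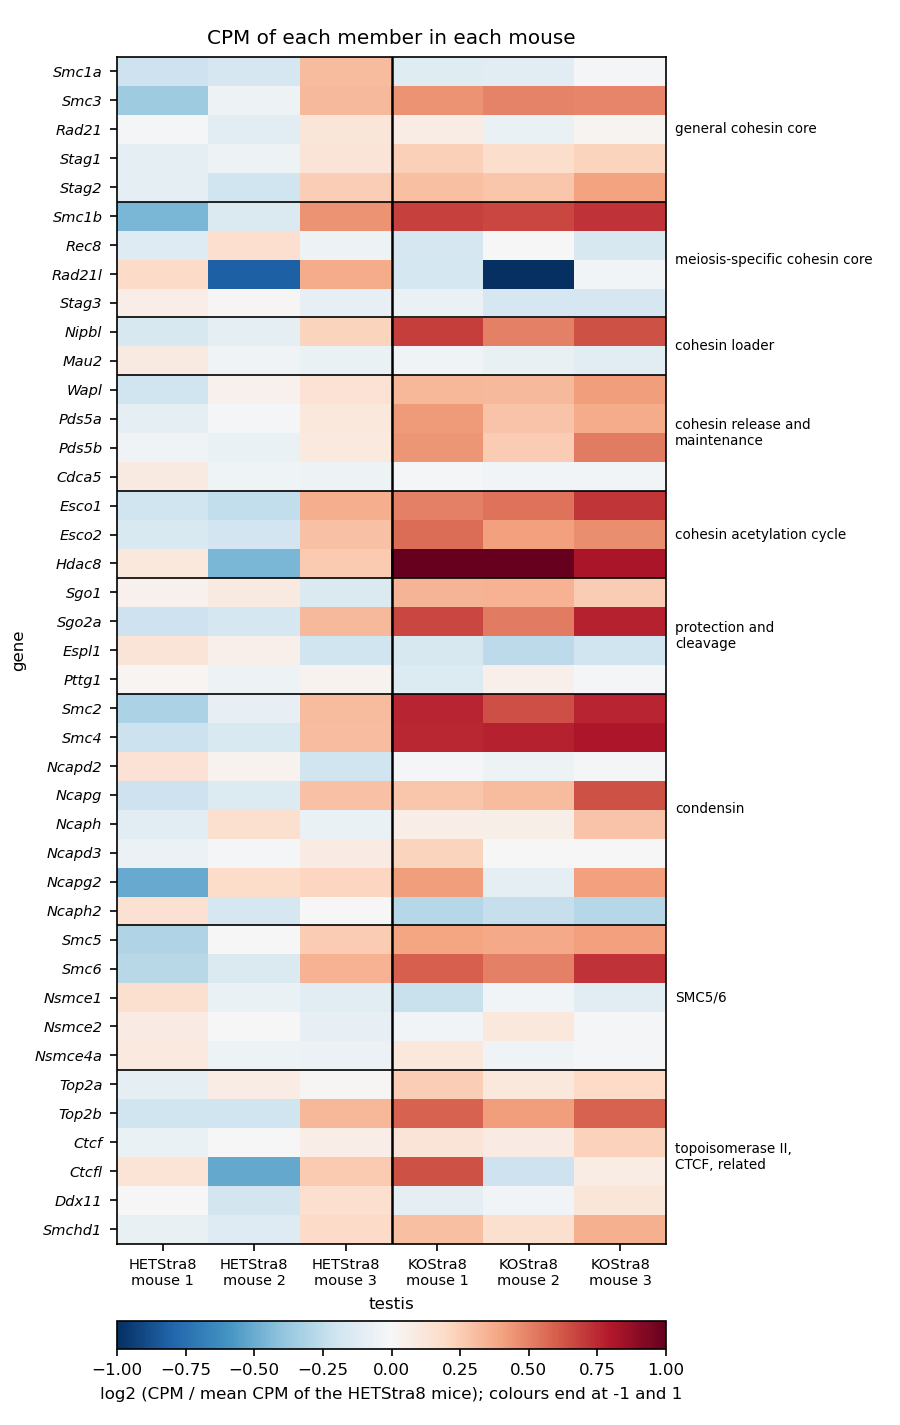
Log2 of CPM over the mean of the HETStra8 mice for each member (rows, by role) in each of the 6 mice (columns), with colours ending at -1 and 1. HETStra8 mouse 3 is the highest of its group in 28 of the 41 tested members, and KOStra8 mouse 2 the lowest of its group in 26.

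Both groups held a mouse that stood apart in these genes. HETStra8 mouse 3 was the highest HETStra8 mouse in 28 of the 41 members, where this held for 36.1% of all genes. It was also the highest in 19 of the 20 members higher in KOStra8 at an unadjusted p of 0.05. The share among all genes higher at that p is not given here, so the 19 cannot be called particular to the members. KOStra8 mouse 2 was the lowest KOStra8 mouse in 26 members, where this held for 35.4% of all genes. The median over members of the log2 difference from the HETStra8 mean was -0.076, -0.055 and 0.15 in HETStra8 mice 1, 2 and 3, and 0.29, 0.11 and 0.25 in KOStra8 mice 1, 2 and 3, so KOStra8 mouse 2 lay below HETStra8 mouse 3. Without HETStra8 mouse 3, 17 members were higher and 1 was lower (Espl1) at an adjusted p of 0.05, against 3.93% and 0.969% of all genes, and the median was 0.29. Without HETStra8 mouse 1 the count of higher members was 2, against 0.18% of all genes, and it was 0 without any single mouse of the other 4, against 0.0136% to 0.0182%.

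Base composition moved with the genotype difference. Transcripts of the members were poorer in GC than those of all genes, with medians of 43.0% and 48.8%, and longer, with medians of 4629 and 2673 bases. All 20 members higher at an unadjusted p of 0.05 were among the 25 with under 45% GC, and both lower members were among the 16 above. The same lean was present in the whole table, where 19.4% of genes under 45% GC were higher and 0.451% lower, against 2.36% and 6.93% of the others. The 80% of low-GC members that were higher is therefore to be read beside 19.4%, not beside 7.13%. After each library was corrected for GC content and transcript length, 13 members were higher and none lower at an unadjusted p of 0.05, against 4.07% and 3.51% of all genes, and all 13 were among the 20. All 13 were again among the 25 members with under 45% GC. With the correction, 375 of 5981 genes under 45% GC were higher at that p, and 497 of 15476 others. The 13 are therefore to be read beside the first of these counts. The median of the members was then 0.097. Of the corrected values, those of 2 members, Nipbl (adjusted p = 0.0431) and Smc4 (adjusted p = 0.0256), passed an adjusted p of 0.05 by edgeR's test, as 0.0512% of all genes did upward and 0.00932% downward. With the correction and without HETStra8 mouse 3, 9 members were higher and 0 lower at an adjusted p of 0.05, against 1.04% and 0.489% of all genes. What part base composition has in the members' difference was not tested beyond this correction.

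**Figure D3:**
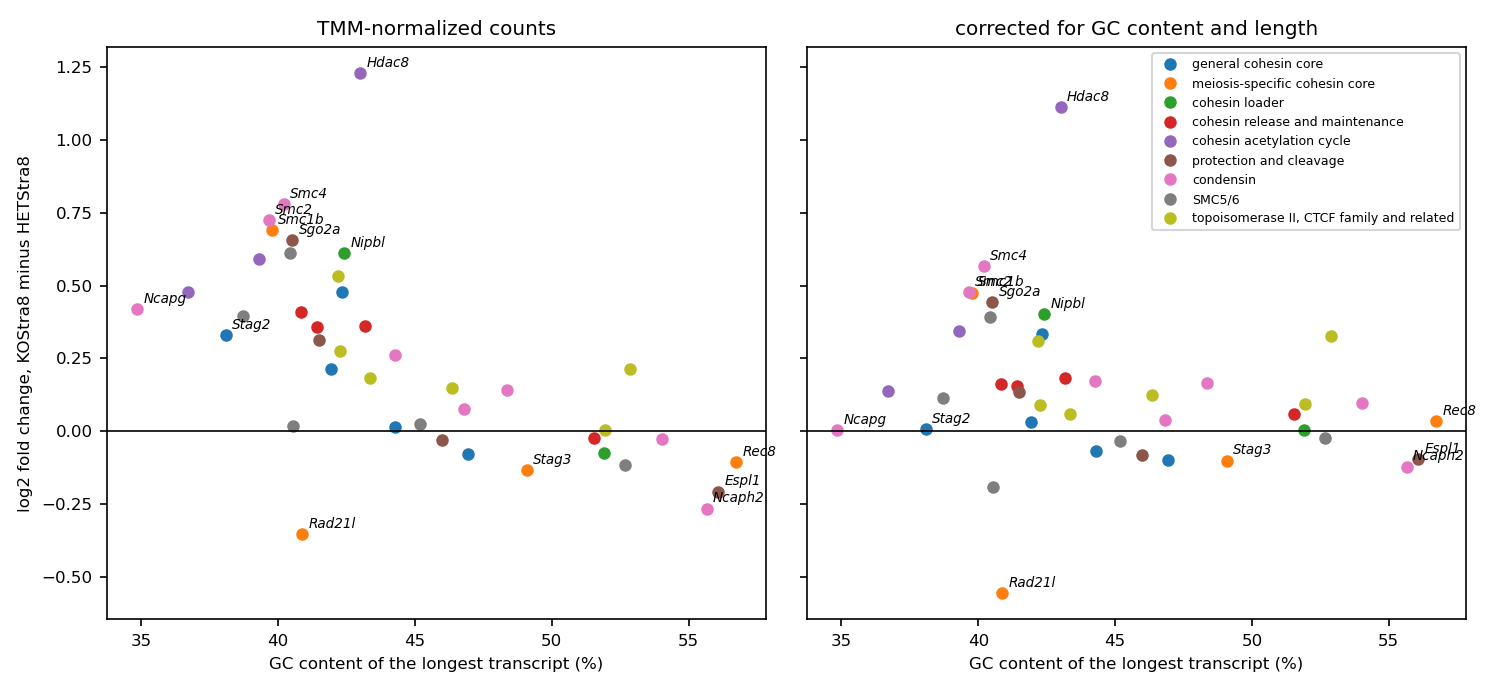
Log2 fold change of the 41 tested members (KOStra8 minus HETStra8) against the GC content (%) of the longest transcript, before (left) and after (right) correction for GC content and length, coloured by role. Spearman's rho over the members is -0.74 before the correction and -0.39 after it, beside -0.46 over 21457 genes before it, as a description across genes that share 6 libraries.

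The summed level of early meiotic markers was also higher in KOStra8 testes, although its single markers had both signs. The summed level per length of 10 markers of leptotene and zygotene spermatocytes, the stages in which the meiotic axis is laid down, was 187, 186 and 237 in the HETStra8 mice and 269, 240 and 266 in the KOStra8 mice, with HETStra8 mouse 3 again the highest of its group and KOStra8 mouse 2 the lowest of its own. Of the 10 markers 3 were higher at an unadjusted p of 0.05 (Meioc, Ythdc2 and Rad51ap2) and 0 lower, where 7.13% and 5.12% of all genes were. The marker sums in this paragraph weight abundant genes and are not corrected for GC content. The log2 fold change was positive in 7 of the 10 leptotene and zygotene markers, with a median of 0.26. With the GC correction the median was 0.15, and 2 were higher and 0 lower at that p, where 4.07% and 3.51% of all genes were. None of the 10 was at 0 in all mice. Markers of pachytene and diplotene spermatocytes summed to 9572 to 10081 in HETStra8 and to 9392 to 9734 in KOStra8, and those of spermatogonia to 1034 to 1142 and 982 to 1024. Sertoli cell markers summed to 766 to 819 and 661 to 752, so that spermatogonial and Sertoli sums were lower in every KOStra8 mouse. Leydig cell markers summed to 752 to 1197 and 681 to 843, with overlap. The sums of round spermatids (1974 to 2372 and 2214 to 2314), elongating spermatids (59859 to 61141 and 56805 to 62118), peritubular cells (104 to 152 and 107 to 121), macrophages (73.2 to 83.0 and 59.9 to 76.8) and endothelial cells (16.4 to 23.2 and 16.0 to 23.4) overlapped between the groups. The log2 fold change was positive in 0 of 10 Sertoli, 0 of 8 Leydig and 0 of 6 peritubular markers. It was positive in 1 of 6 macrophage and 3 of 6 endothelial markers. In that order the medians were -0.15, -0.29, -0.22, -0.23 and -0.061. With the GC correction they were -0.088, -0.24, -0.12, -0.13 and 0.011. At an unadjusted p of 0.05, 1, 1, 1, 2 and 0 were lower and 0 higher, beside 5.12% and 7.13% of all genes. Of 10 markers each, 4 of spermatogonia, 4 of pachytene and diplotene spermatocytes, 5 of round and 2 of elongating spermatids were positive. Of these, 1 pachytene and diplotene marker was higher and 2 elongating spermatid markers were lower at that p. The part of cell composition in the members' values was not tested.

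Of the 4 meiosis-specific subunits, Smc1b was higher in KOStra8 testes and the others had negative values. Smc1b, the meiotic SMC1 (ENSMUSG00000022432, chr15:85064689-85131964, minus strand), was at 134, 166 and 251 CPM in HETStra8 and at 295, 291 and 302 CPM in KOStra8 testes. The groups did not overlap, and the KOStra8 mice were much closer to each other than the HETStra8 mice were (log2 fold change 0.69, SE 0.240, adjusted p = 0.368). Without HETStra8 mouse 3 the value was 0.99 (adjusted p = 5.9e-06). Without HETStra8 mouse 1 or 2 it was 0.51 and 0.62 (adjusted p = 0.537 and 0.609 by edgeR's test). Without any single KOStra8 mouse it was 0.67 to 0.71 (adjusted p = 0.501 to 0.766). After the GC correction with all mice the value was 0.48. Stag3, the meiotic STAG subunit (ENSMUSG00000036928, chr5:138280240-138312393, plus strand), was at 648, 623 and 584 CPM in HETStra8 and 591, 550 and 550 in KOStra8. Here HETStra8 mouse 3 was the lowest of its group and lay below KOStra8 mouse 1 (log2 fold change -0.13, SE 0.0673, adjusted p = 0.434). Rec8, the meiotic kleisin cleaved at anaphase (ENSMUSG00000002324, chr14:55618037-55625395, plus strand), was at 83.5, 103 and 88.5 CPM against 81.3, 91.9 and 82.1, with overlapping groups (log2 fold change -0.11, SE 0.0924, adjusted p = 0.676; 0.033 with the GC correction). Rad21l, the kleisin of early prophase (ENSMUSG00000074704, chr2:151645404-151668533, minus strand), was at 3.28, 1.63 and 3.72 CPM against 2.55, 1.35 and 2.82. Its few counts gave a wide error (log2 fold change -0.35, SE 0.343, adjusted p = 0.712), and mouse 2 was the lowest of both groups.

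Set against the general members, the meiosis-specific subunits had the lower median. It was -0.12 over these 4 genes, of which only Smc1b was positive, and 0.26 over the 37 general members tested, of which 29 were positive, a difference of -0.38. Per mouse this difference was 0.048, 0.012 and 0.053 in HETStra8 and -0.39, -0.25 and -0.34 in KOStra8, without overlap. These per-mouse values are taken from the HETStra8 mean of each gene, without GC correction. That reference keeps the HETStra8 values near 0, so their closeness to 0 is not a result. Rec8 and Stag3 were also richer in GC, at 56.7% and 49.1%, than Smc1b (39.8%) and Rad21l (40.9%). With the GC correction the medians were -0.034 and 0.11 and their difference -0.15. With 4 genes, the lower median cannot be taken as a property of meiotic subunits, and no test of it was made.

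The general cohesin core held higher values for Smc3 and the general STAG subunits, and values near 0 for Smc1a and Rad21. Smc3, the SMC partner shared by mitotic and meiotic cohesin, was at 74.6, 91.8 and 119 CPM in HETStra8 and at 130, 134 and 133 in KOStra8, without overlap (log2 fold change 0.48, SE 0.143, adjusted p = 0.257; 0.33 with the GC correction). Stag1 was at 49.8, 51.2 and 57.9 CPM against 62.4, 60.0 and 61.8 (0.21, SE 0.0870, adjusted p = 0.355), and X-linked Stag2 at 34.5, 32.0 and 43.6 CPM against 45.3, 44.6 and 48.4 (0.33, SE 0.113, adjusted p = 0.284). In neither gene did the groups overlap, but with the GC correction the fold changes of these general STAG subunits were 0.030 and 0.0081. Smc1a, also on the X chromosome, was at 10.9, 11.2 and 15.7 CPM against 11.6, 11.7 and 12.5, where HETStra8 mouse 3 was the highest of all 6 mice. Its value (log2 fold change -0.078, SE 0.155, adjusted p = 0.872) became 0.12 without that mouse. Rad21 was at 112, 105 and 124 CPM against 120, 109 and 116, with overlapping groups (log2 fold change 0.014, SE 0.0826, adjusted p = 0.962).

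**Figure D4:**
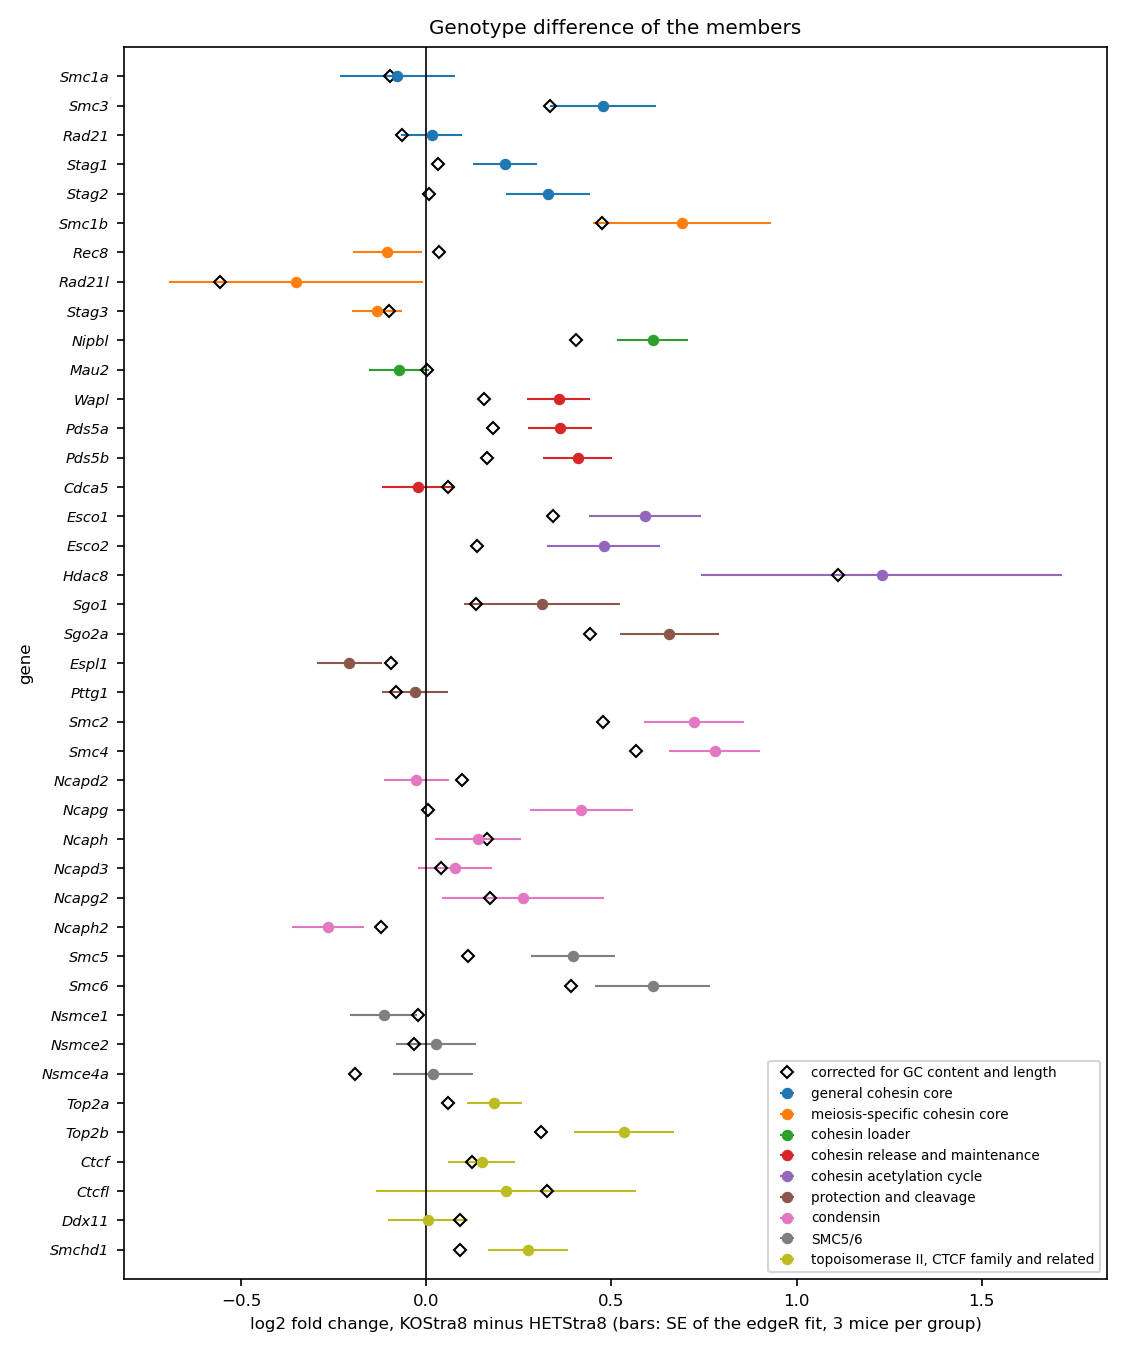
Log2 fold change (KOStra8 minus HETStra8) of the 41 tested members with the SE of the edgeR fit (3 mice per group), coloured by role, and the value after correction for GC content and length (open diamonds). Smc4, Smc2 and Smc1b have values of 0.78, 0.72 and 0.69, Hdac8 the highest at 1.23 with the widest error, and Rad21l the lowest at -0.35.

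Among the regulators of cohesin, the loader subunit Nipbl had the smallest adjusted p. Nipbl, which loads cohesin and drives loop extrusion (ENSMUSG00000022141, chr15:8290617-8444463, minus strand), was at 384, 400 and 501 CPM in HETStra8 and 690, 606 and 667 in KOStra8. The lowest KOStra8 value was above the highest HETStra8 value, and no other member had a smaller adjusted p (log2 fold change 0.61, SE 0.0959, adjusted p = 0.0521 by edgeR). Its partner Mau2 was at 73.3 to 81.7 CPM in HETStra8 and 70.9 to 74.7 in KOStra8 (-0.074, adjusted p = 0.744), and its groups overlapped. The release factor Wapl was at 172, 203 and 218 CPM against 249, 247 and 263, without overlap (0.36, SE 0.0860, adjusted p = 0.141). Pds5a and Pds5b bridge release and maintenance. Pds5a was at 47.7, 50.7 and 54.8 CPM against 68.5, 62.3 and 66.0 (0.36, SE 0.0871, adjusted p = 0.141), and Pds5b at 46.8, 45.9 and 51.4 CPM against 65.0, 57.2 and 69.0 (0.41, SE 0.0939, adjusted p = 0.133). In both genes all KOStra8 mice lay above all HETStra8 mice. Cdca5, the sororin that opposes Wapl, had a log2 fold change of -0.024. With the GC correction Wapl, Pds5a and Pds5b were at 0.16, 0.18 and 0.16, and Mau2 and Cdca5 changed sign to 0.0028 and 0.059.

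The acetylation cycle locks cohesin on DNA through Esco1 and Esco2 and resets it through Hdac8. Esco1 was at 22.2, 21.5 and 32.9 CPM in HETStra8 and at 36.3, 37.1 and 42 in KOStra8 (log2 fold change 0.59, SE 0.151, adjusted p = 0.188), with 8.50% of its 50-base words shared with the predicted gene Gm7054, which leaves its reads in part uncertain. Esco2 was at 8.53, 8.29 and 11.6 CPM against 13.9, 12.6 and 13.1 (0.48, SE 0.154, adjusted p = 0.252). Both enzymes were higher in every KOStra8 mouse than in any HETStra8 mouse. Hdac8 had 11, 8 and 13 counts in HETStra8 and 34, 22 and 21 in KOStra8, the largest fold among the members on the fewest counts of those tested (log2 fold change 1.23, SE 0.488, adjusted p = 0.343). With the GC correction the 3 genes were at 0.34, 0.14 and 1.11.

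The protectors and cleavers of cohesin had values of both signs. Sgo2a, the shugoshin that shields centromeric REC8 in meiosis I, was at 36.5, 37.3 and 52.6 CPM in HETStra8 and at 66.9, 60.4 and 72 in KOStra8, without overlap (log2 fold change 0.66, SE 0.135, adjusted p = 0.115; 0.44 with the GC correction). Of its exon bases 35.0% are overlapped by Kctd18 on the opposite strand, and the strand setting of the counting was not given in the sources used here. Sgo1, the mitotic shugoshin, was at 2.7 to 3.18 CPM against 3.56 to 3.80 (0.31, adjusted p = 0.562). Espl1, the separase that cuts the kleisin, was at 194, 183 and 154 CPM against 158, 147 and 154, with HETStra8 mouse 3 inside the KOStra8 range (-0.21, SE 0.0867, adjusted p = 0.363; -0.095 with the GC correction). Its inhibitor Pttg1, the securin, was at 44.7 to 47.7 CPM against 42.1 to 48.2 (-0.032, adjusted p = 0.914).

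In condensin the ATPases Smc4 and Smc2 had the highest values. Smc4 (ENSMUSG00000034349, chr3:69004738-69034623, plus strand) was at 308, 321 and 442 CPM in HETStra8 and at 603, 607 and 626 in KOStra8. The KOStra8 mice lay close together and far above the others (log2 fold change 0.78, SE 0.123, adjusted p = 0.0736; 0.57 with the GC correction). Its partner Smc2 (ENSMUSG00000028312, chr4:52439243-52488260, plus strand) was at 31.2, 36.7 and 48.4 CPM against 65.8, 60.7 and 65.7 (0.72, SE 0.135, adjusted p = 0.0929; 0.48 with the GC correction). Per length Smc4 was at 208 ± 44.1 and Smc2 at 21.5 ± 5.00 (SD, n = 3) in HETStra8, although the proteins work as a pair. Among the subunits particular to condensin I, Ncapg was at 51.7, 54.4 and 73.1 CPM against 72.4, 74.4 and 92.6, where HETStra8 mouse 3 exceeded KOStra8 mouse 1 (0.42, SE 0.140, adjusted p = 0.289), and with the GC correction it was at 0.0042. Its exon bases overlap Lcorl on the opposite strand over 13.4%. Ncapd2 and Ncaph had log2 fold changes of -0.028 and 0.14, and Ncapd2 was at 0.097 with the GC correction. Of the condensin II subunits, Ncaph2 was at 52.6, 42.1 and 47.0 CPM against 38.9, 40.2 and 38.7, the only member lower in every KOStra8 mouse than in any HETStra8 mouse (-0.27, SE 0.0977, adjusted p = 0.304; -0.12 with the GC correction), with 19.7% of its exon bases overlapped by Sco2 and Tymp on the opposite strand. Ncapd3 and Ncapg2 were at 0.077 and 0.26.

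In SMC5/6 too the ATPases had the highest values. Smc6 was at 154, 169 and 238 CPM in HETStra8 and at 283, 265 and 310 in KOStra8 (log2 fold change 0.61, SE 0.155, adjusted p = 0.230), and Smc5 at 168, 205 and 246 CPM against 271, 269 and 275 (0.40, SE 0.114, adjusted p = 0.231). Neither pair of groups overlapped. With the GC correction they were at 0.39 and 0.11. The non-SMC subunits Nsmce1, Nsmce2 and Nsmce4a had log2 fold changes of -0.12, 0.025 and 0.018, and their groups overlapped. They were at -0.023, -0.033 and -0.19 after the GC correction, so that Nsmce2 and Nsmce4a changed sign.

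The remaining members are topoisomerases, CTCF family genes and related chromosome factors. The topoisomerase Top2b was at 29.2, 29.3 and 42.3 CPM in HETStra8 and at 50.6, 44.8 and 50.6 in KOStra8 (log2 fold change 0.53, SE 0.136, adjusted p = 0.181; 0.31 with the GC correction), with 12.3% of its exon bases overlapped by Rarb on the opposite strand. Top2a, the isoform of dividing cells, was at 199.9, 226 and 216 CPM against 253, 230 and 246 (0.18, SE 0.0740, adjusted p = 0.349), and Smchd1, the SMC-like factor of X inactivation, at 27.8, 26.8 and 33.4 CPM against 36.2, 32.8 and 37.5, where HETStra8 mouse 3 exceeded KOStra8 mouse 2 (0.28, SE 0.108, adjusted p = 0.338). Top2a was at 0.058 and Smchd1 at 0.091 after the GC correction. The insulator Ctcf was at 0.15, Ctcfl at 0.22 and the helicase Ddx11 at 0.0035. Over the 14 tested members outside those with an unadjusted p under 0.05, the core and the extremes, log2 fold changes lay between -0.12 and 0.31 with adjusted p from 0.526 to 0.993, and the groups overlapped in 12.

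Summed by role and per length, the largest absolute difference was that of condensin, from 389 ± 48.9 in HETStra8 to 569 ± 20.8 in KOStra8 (SD, n = 3), most of it from Smc4. The acetylation cycle, from 19.7 ± 4.76 to 30.0 ± 1.84, differed by more than condensin in ratio, and the loader by about the same ratio as condensin. The loader sum went from 163 ± 20.2 to 240 ± 18.8, mostly from Nipbl, the meiosis-specific core from 564 ± 35.4 to 625 ± 20.2 and the general core from 167 ± 23.3 to 198 ± 7.41. Release and maintenance went from 155 ± 11.4 to 191 ± 8.25 and SMC5/6 from 390 ± 12.8 to 435 ± 8.18. Topoisomerases, CTCF family and related genes went from 124 ± 8.02 to 144 ± 8.98. Protection and cleavage stood at 152 ± 1.6 and 157 ± 3.54. In the general core the groups overlapped, with HETStra8 mouse 3 at 193.7 and KOStra8 mouse 2 at 189.3. They also overlapped in protection and cleavage, with HETStra8 mouse 1 at 154.1 and KOStra8 mouse 2 at 153.4. In the other roles they did not overlap. These sums are not corrected for GC content, and with that correction the log2 fold changes of Smc4 and Nipbl were 0.57 and 0.40. The sums weight abundant genes, so that the meiosis-specific sum was higher in KOStra8 through Smc1b although the median over its 4 genes was negative.

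Genes that act with these complexes were counted from 2 further lists. Among 26 tested partners (replication fork factors of cohesion, SMC5/6 subunits and localisers, chromosomal passenger proteins and others), 4 were higher and 0 lower at an unadjusted p of 0.05, beside 7.13% and 5.12% of all genes, and the median log2 fold change was -0.0057. The 4 were Mki67, which coats mitotic chromosomes (0.66, adjusted p = 0.115), the checkpoint kinase Bub1 (0.28, adjusted p = 0.238), and Slf1 and Slf2, which bring SMC5/6 to DNA (0.43 and 0.20, adjusted p = 0.285 and 0.389). With the GC correction they were at 0.56, 0.093, 0.13 and 0.061. Of 11 tested partners on the meiotic axis and synaptonemal complex, 1 was higher, Sycp2 (0.96, adjusted p = 0.292), and the median was 0.14. A count of 1 in 11 is near the share of all genes.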

How the data were processed

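Counts per gene were deposited by the authors as 1 file for each of 6 testis libraries (3 KOStra8, 3 HETStra8), as whole numbers of reads per Ensembl gene, not normalized. The submitters' processing notes name STAR 2.7.1a, featureCounts 1.6.0 and HTSeq with mm10/GRCm38, and which tool made the counts, and its strand setting, is not given in the sources used here. The members and all lists were chosen with earlier results of these data known. Symbols, positions, exon lengths and GC content came from GENCODE mouse release 21. The partner symbol Iho1 matched no gene, and Chtf8 matched 2, of which the one with more counts was used.

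In R 4.3.3, edgeR 4.0.16 was run on all 6 libraries with filterByExpr, TMM normalization and robust glmQLFit, in which genotype was the sole term, tested two-sided with Benjamini-Hochberg adjustment over 21465 genes. The p-values judge the genotype difference against the estimated spread between mice (common biological coefficient of variation 0.160). CPM are TMM-normalized, and per-mouse log2 values used a prior count of 2. Levels per length are counts over union exon length, scaled to the same total in each library. The correction for GC content and length used offsets from a loess curve per library (span 0.3, genes above a log2 CPM of 2). DESeq2 1.42.0, limma-voom (limma 3.58.1), other scalings and filters, the replicate number as a block and leaving out each mouse were alternatives. Procedures were tested on simulated data. Values are given in full for the 9 core cohesin subunits, every member with an unadjusted p under 0.05 and the 3 members with the highest and the 3 with the lowest fold change, and the others were given by value or range. Promoter windows came from RefSeq (GRCm38.p6).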

Additional observations from a re-analysis of the deposited data

How the results depend on the processing

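None of the 41 tested members passed both study cutoffs (adjusted p 0.01, fold 2) under any alternative. Over 610 values of single members under 15 alternatives, 521 kept direction and side of an adjusted p of 0.05, 60 passed it newly (18 of these without HETStra8 mouse 3, 13 with no filter and 12 with DESeq2) and 29 changed sign, in 12 members. With no filter, 1.51% of all genes were higher and 0.329% lower at that adjusted p. With the GC and length correction the counts at an unadjusted p of 0.05 were 13 higher and 0 lower in place of 20 and 2, the medians were 0.097 over members and 0.11 over general members, and the difference between meiosis-specific and general members was -0.15. With this correction 7 members changed sign: Rad21 to -0.067, Rec8 to 0.033, Mau2 to 0.0028, Cdca5 to 0.059, Ncapd2 to 0.097, Nsmce2 to -0.033 and Nsmce4a to -0.19. Rad21 also varied between -0.040 and 0.090 over left-out mice, and Smc1a between -0.17 and 0.12, the last without HETStra8 mouse 3. Leaving out each mouse gave 15 to 20 higher (all genes: 4.29% to 11.0%) and 0 to 3 lower members, medians of 0.17 to 0.30 over members, -0.13 to -0.072 over meiosis-specific and 0.21 to 0.38 over general members, and differences of -0.49 to -0.30. In the uncorrected fit without HETStra8 mouse 3, 8.81% of all genes were lower at that unadjusted p. The share of genes lower without each of the other mice is not given here. Leaving out each mouse with the correction, an alternative chosen after seeing the data as was the split at 45% GC, gave 11, 7 and 13 higher members without HETStra8 mouse 1, 2 and 3 and 9, 9 and 10 without KOStra8 mouse 1, 2 and 3, with 0 to 3 lower. In that order the medians were 0.083, 0.11, 0.13, 0.099, 0.10 and 0.082 over members and 0.099, 0.11, 0.15, 0.10, 0.11 and 0.082 over general members, the differences were -0.17, -0.10, -0.19, -0.13, -0.15 and -0.11, and the meiosis-specific median lay between -0.068 and 0.0095. In the corrected fit without HETStra8 mouse 3, 6.65% of all genes were higher and 5.77% lower at an unadjusted p of 0.05. For the other left-out mice the share over all genes with the correction is not given here. The longest transcript in place of the exon length gave shares of 94.3% and 96.6% for Smc1b, 90.1% and 87.4% for Stag3 and 60.3% and 58.1% for Rec8 with Rad21l in HETStra8 and KOStra8.

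The mice share replicate numbers without a stated pairing. Same-numbered mice had correlations of their deviations from the group means of -0.060, -0.052 and 0.11 over 21465 genes, and only mouse 3 correlated best with its own number, so the numbers were not taken to pair the mice. With the replicate block 8 members passed an adjusted p of 0.05, all higher, against 0.759% of all genes. With the block and the GC correction 11 members were higher and 1 lower at an unadjusted p of 0.05, the medians were 0.099 and 0.12, the difference -0.15, Rad21 -0.065, Rec8 0.041 and Ncapg -7.8e-07. The share of all genes at that p is not given here for the block with the correction.

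DESeq2 gave no adjusted p for Rad21l, Hdac8, Sgo1, Ctcfl and Sgo2b. Depth limits the values of Hdac8, Rad21l, Ctcfl and Sgo1, the members with the fewest counts among those tested.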
